A study of Homo sapiens with 12 samples.

Results

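The genes described here are the synuclein genes SNCB and SNCG, the membrane protein gene TMEM59L, and 6 genes of the repressor machinery built on REST, namely REST, RCOR1, RCOR2, RCOR3, KDM1A and SIN3A. These 9 genes were taken by symbol from a table of 28278 genes measured by RNA sequencing, and all 9 passed the filter on low counts together with 15805 genes in all. SNCB and TMEM59L were picked because they rose from near 0 under sodium butyrate, so all their differences are given as values with no test. The other 7 were listed by name to set beside them.

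The cells were K562, a human erythroleukaemia line, either unedited (WT) or carrying a knockout of HRG1 (KO), the heme transporter encoded by SLC48A1. Each genotype was left untreated or received 0.75 mM sodium butyrate 24 h after plating and once more 48 h later, with harvest 6 h after the second dose, on day 8 of differentiation. Each of the 4 groups held 3 libraries. The labels do not give the number of KO clones or say whether replicates were separate cultures, so the p-values measure only the spread between these libraries, which may be technical.

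REST is a zinc finger protein that sits on RE1 elements and keeps neuronal genes silent outside the nervous system. One end of the protein recruits SIN3A and the other a CoREST protein (RCOR1, RCOR2 or RCOR3), and both arms bring the histone deacetylases HDAC1 and HDAC2, while CoREST also holds KDM1A (LSD1), which removes methyl groups from lysine 4 of histone H3. Butyrate is a short-chain fatty acid that inhibits class I histone deacetylases and drives K562 cells towards hemoglobin synthesis. SNCB encodes beta-synuclein, a protein of presynaptic terminals, SNCG encodes gamma-synuclein, found mainly in peripheral and sensory neurons, and TMEM59L encodes a membrane protein of the brain related to TMEM59.

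SNCB and TMEM59L were chosen for their rise with butyrate and SNCG by name. The sequences upstream of these 3 neuronal genes are shown here. They come from RefSeq (GRCh38.p14), run 5′ to 3′ on the strand of the gene and stop before the first annotated exon base. Capitals mark the GC box GGGCGG or its reverse complement, the letters bound by factors of the Sp family.
SNCB (chr5:176630557-176630784, minus strand): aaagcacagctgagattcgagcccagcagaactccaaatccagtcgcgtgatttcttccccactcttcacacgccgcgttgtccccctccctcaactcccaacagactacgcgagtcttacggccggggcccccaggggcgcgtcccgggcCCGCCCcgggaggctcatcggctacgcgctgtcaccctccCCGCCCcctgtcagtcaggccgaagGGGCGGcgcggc
TMEM59L (chr19:18612620-18612850, plus strand): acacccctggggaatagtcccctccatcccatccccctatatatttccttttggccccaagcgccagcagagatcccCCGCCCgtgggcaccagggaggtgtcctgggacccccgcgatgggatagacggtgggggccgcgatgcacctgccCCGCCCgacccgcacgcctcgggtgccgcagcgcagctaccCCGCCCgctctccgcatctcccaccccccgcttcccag
SNCG (chr10:86958349-86958598, plus strand, the second of its RefSeq starts): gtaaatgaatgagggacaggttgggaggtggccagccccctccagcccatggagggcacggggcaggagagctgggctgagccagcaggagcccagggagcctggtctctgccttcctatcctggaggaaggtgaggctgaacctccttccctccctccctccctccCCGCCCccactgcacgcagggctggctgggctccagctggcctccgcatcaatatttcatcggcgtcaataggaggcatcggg

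Over the full windows of 250 bases before the start, SNCB had 3 GC boxes, TMEM59L 3 and SNCG 1, and 42.6% of 35116 RefSeq promoters of that length held at least 1. The SNCB window was 69.2% G and C with 26 CpG dinucleotides, and the TMEM59L window 70.4% with 21. SNCG had 65.2% but 7 CpG. G and C content as high was found in 22.5% of promoters for SNCB, 19.9% for TMEM59L and 32.4% for SNCG. A ratio of observed to expected CpG as high was found in 18.6%, 38.3% and 70.5%. The left arm of the RE1 element, CAGCACC, was searched on both strands and was absent from all 3 windows, against 6.16% of promoters that hold it. The right arm, GGACAG, occurred 1 time upstream of SNCG and in neither other window, and 17.2% of promoters hold it. With both arms set 2 bases apart, the best match in SNCB and in TMEM59L had 8 of 13 letters, a score that 95.5% of promoters reach, and in SNCG 9, which 56.5% reach. The first RefSeq start of SNCG, not printed, had 0 GC boxes and 6 CpG in a window of 60.0% G and C. The erythroid GATA motif AGATAA was in none of the 3 windows, against 9.17% of promoters. Of the 38 known REST targets described below, 25 had such a window, with a median best score of 9, the same as over all promoters. Scores of 11 or more were reached by 3 of these 25, against 1.53% of promoters. The score in this window thus does not separate most known targets from other promoters. These are letter matches in a short window and not measured binding sites.

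SNCB lies at chr5:176620084-176630556 on the minus strand, TMEM59L at chr19:18607430-18621039 on the plus strand and SNCG at chr10:86958618-86963260 on the plus strand (GENCODE 29, GRCh38). The GENCODE span of TMEM59L starts upstream of the RefSeq window printed above. SNCG lies whole inside the span of MMRN2, which runs on the opposite strand, with 0 bases shared between their exons. Whether the counting used strand is not given in the sources used here, so reads from the opposite strand cannot be told apart from a gene's own, for SNCG, TMEM59L or any other gene.

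SLC48A1, the targeted gene, was between 58.9 and 83.8 CPM (counts scaled to library size by TMM) in the 6 WT libraries and between 2.94 and 10.1 CPM in the 6 KO libraries. Library totals ran from 19963594 to 30348538 counts, and 3 counts, taken as the limit of detection, stood for 0.0953 to 0.162 CPM. That limit covers counting error only. All 12 erythroid markers listed for K562 passed the filter, with summed levels of 8494 to 18531 CPM in untreated WT, 26774 to 64541 in treated WT, 4104 to 7075 in untreated KO and 4976 to 7763 in treated KO. Of 16 neuron markers, DCX, NCAM1, UCHL1, NEFL and INA had 0 counts in every library, 8 never exceeded 3 counts and 5 were tested. Their summed level was 94.0 to 172 CPM in untreated WT, 176 to 409 in treated WT, 71.7 to 143 in untreated KO and 154 to 378 in treated KO. The share of counts on the ribosomal gene RNA28SN5 ranged from 0.673% to 5.63% and was highest in the library numbered 1 of every group.

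SNCB was close to absent without butyrate and clearly present with it in both genotypes. Untreated WT libraries held 0, 0 and 6 counts of SNCB in replicates 1, 2 and 3, and untreated KO libraries 5, 2 and 10. With butyrate the counts were 57, 423 and 211 in WT and 201, 899 and 695 in KO. Every treated library stood above every untreated one, as in 21.7% of tested genes in WT and 24.4% in KO whose groups did not overlap in either direction, and replicate 1 was the lowest treated library of each genotype. On the scaled level, the treated WT libraries gave 2.95, 18.1 and 6.71 CPM and the treated KO libraries 9.23, 29.7 and 22.4 CPM. The lowest treated library was 14.6 times the highest untreated one in WT and 27.6 times in KO. In these bulk samples a larger number of cells with SNCB and more SNCB RNA in each cell cannot be told apart.

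The fitted butyrate effect on SNCB was 6.75 in WT (log2 fold change, SE 1.03) and 6.40 in KO (SE 0.95). Its size in WT depended on single libraries, running from 5.83 to 10.8 as each of the 12 was left out. The highest value came without replicate 3 of untreated WT, which leaves that group with 0 counts, so it is no measured fold. In KO the effect ran from 6.02 to 6.81. Between genotypes the SNCB levels overlapped. Treated KO averaged 20.4 ± 10.4 CPM (SD, n = 3) and treated WT 9.24 ± 7.86 CPM (SD, n = 3), a log2 difference of 1.15 (SE 0.72). In untreated cells most libraries were near the limit of detection, and SNCB entered the model only through the treated ones.

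TMEM59L followed the same course with a larger gap between genotypes. Untreated libraries held 0, 7 and 4 counts in WT and 0, 4 and 11 in KO. With butyrate WT held 15, 298 and 271 counts and KO 611, 1730 and 1101. These correspond to 0.778, 12.7 and 8.61 CPM in treated WT and 28.1, 57.2 and 35.5 CPM in treated KO. The treated groups did not overlap each other or the untreated groups. Treated and untreated groups did not overlap in 21.7% of tested genes in WT and 24.4% in KO. Replicate 1 of treated WT came closest to the untreated level, at 2.39 times the highest untreated WT library. In KO the lowest treated library was 76.3 times the highest untreated one. The fitted butyrate effect was 5.52 in WT (log2 fold change, SE 1.07) and 7.59 in KO (SE 1.11), with ranges of 4.87 to 6.45 and 7.10 to 8.59 as each library was left out.

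With butyrate TMEM59L averaged 40.2 ± 15.1 CPM in KO and 7.37 ± 6.07 CPM in WT (SD, n = 3 each), a ratio of 5.46. The KO to WT ratio was 36.1 in replicate 1, 4.49 in replicate 2 and 4.12 in replicate 3. The log2 difference was 2.44 (SE 0.82), in a comparison where 33.9% of tested genes had groups that did not overlap. It was 2.99 with the replicate number as a block and 2.10 without the 4 libraries numbered 1, and ran from 1.91 to 3.08 as single libraries were left out. TMEM59L had been picked for its level in treated cells, so these values carry no test. In untreated cells the genotypes overlapped at counts too low to compare.

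SNCB and TMEM59L came up in different proportions in the 2 genotypes. In treated WT the counts of SNCB were 3.8, 1.42 and 0.779 times those of TMEM59L in replicates 1, 2 and 3. In treated KO they were 0.329, 0.520 and 0.631 times as high. The highest KO ratio lay below the lowest WT ratio, which is given as a description since both genes were chosen for their response. The libraries numbered 1, which had the largest share of RNA28SN5 counts, held the lowest treated level of both genes in both genotypes, and the part of library quality in this was not tested. Without those libraries the butyrate effect was 6.69 in WT and 6.78 in KO for SNCB and 5.57 in WT and 7.28 in KO for TMEM59L.

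**Figure D1:**
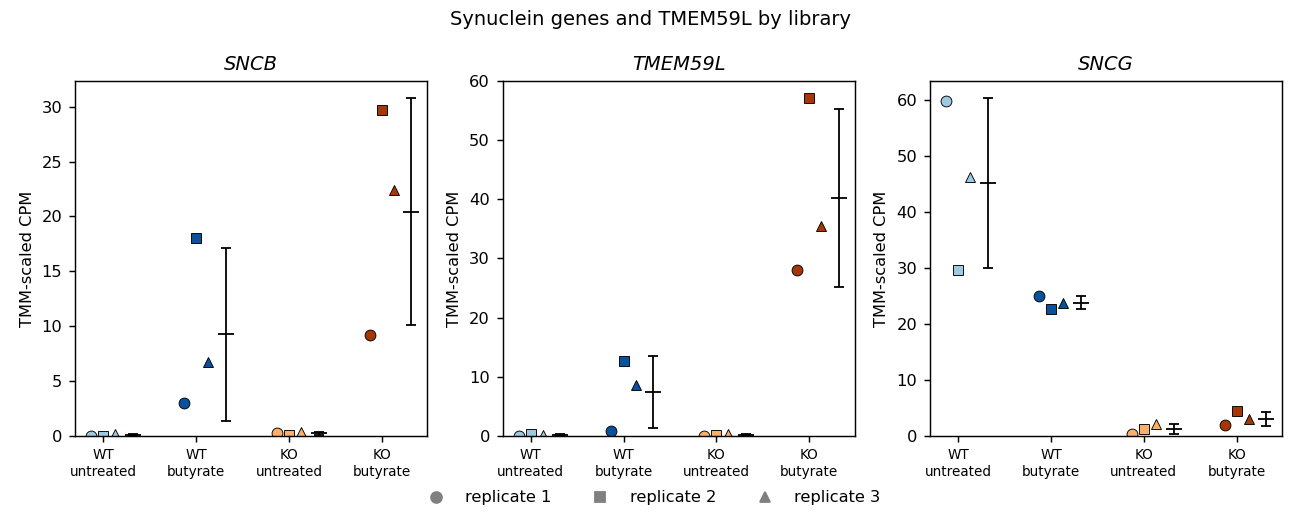
Levels of SNCB, TMEM59L and SNCG in TMM-scaled CPM (vertical axis) for the 4 groups (horizontal axis), with 1 point per library, shaped by replicate number, and the mean with its SD beside the points, cut at 0. SNCB and TMEM59L lie near 0 in all 6 untreated libraries, and SNCG lies between 22.6 and 59.8 CPM in WT and between 0.375 and 4.36 CPM in KO.

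SNCG behaved differently from SNCB: it was expressed in WT cells before any butyrate and was nearly lost in KO cells. Untreated WT libraries gave 59.8, 29.6 and 46.1 CPM of SNCG, from 1105, 637 and 1372 counts. Untreated KO libraries gave 0.375, 1.28 and 2.14 CPM, from 7, 27 and 64 counts. All KO libraries were far below all WT libraries, and the mean of untreated KO was 2.80% of that of untreated WT. Between untreated genotypes the groups of 42.3% of tested genes did not overlap. Treated WT libraries gave 24.9, 22.6 and 23.7 CPM and treated KO libraries 1.88, 4.36 and 2.90 CPM. Here too the genotypes did not overlap, as in 33.9% of tested genes, and the KO mean was 12.8% of the WT mean.

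The genotype difference of SNCG was -5.12 in untreated cells (log2 fold change, SE 0.54, edgeR adjusted p = 3.4e-05) and -2.95 with butyrate (SE 0.48, edgeR adjusted p = 0.00115). Both passed in 12 of 12 fits that left out 1 library. SNCG was the 1 of the 7 tested genes called between untreated genotypes, where 22.6% of all tested genes were called, and the 1 called between treated genotypes, where 19.0% were. With the replicate block RCOR3 was called as well in untreated cells, which made 2. Butyrate changed SNCG by -0.93 in WT (edgeR adjusted p = 0.303), where every treated library was below every untreated one. In WT 21.7% of tested genes had groups that did not overlap in either direction. The change in KO was 1.23 (edgeR adjusted p = 0.178), and the groups overlapped. In WT the 3 same-numbered ratios of treated to untreated were 0.417, 0.764 and 0.514, and in KO they were 5.03, 3.40 and 1.36. The difference between these effects was 2.16 (SE 0.66) with an edgeR adjusted p of 0.738, in a contrast where 0 of 15805 genes were called (0%), 658 had an unadjusted p under 0.05 and DESeq2 called 81.

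Set on a scale per kilobase of exon, the levels of the 3 genes could be compared with each other. Untreated WT cells had 36.2 ± 12.2 CPM per kilobase of SNCG against 0.0335 ± 0.0581 of SNCB and 0.0583 ± 0.0621 of TMEM59L (SD, n = 3). Treated KO cells had 15.3 ± 5.76 CPM per kilobase of TMEM59L, 10.2 ± 5.17 of SNCB and 2.44 ± 0.999 of SNCG (SD, n = 3). SNCG, the highest of the 3 in untreated WT, was the lowest in treated KO, where TMEM59L and SNCB lay within their spread of each other.

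Some genes next to these loci differed between groups too, in contrasts where many tested genes did. COMP, a cartilage matrix gene 3 places from TMEM59L, was at 0 to 2 counts in all 6 untreated libraries and at 0, 43 and 96 in treated WT and 2, 134 and 81 in treated KO. COMP reached the test only through its treated libraries, so it is given by its counts. CRTC1, a CREB coactivator gene, rose by 0.74 over both genotypes (log2 scale, edgeR adjusted p = 0.0279), passing in 6 of 12 fits that left out 1 library. In that contrast 14.6% of all tested genes were called.

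EIF4E1B, a cap-binding protein gene beside SNCB, has a RefSeq span that starts at chr5:176630675, inside the sequence printed upstream of SNCB. EIF4E1B had 0 counts in all 6 untreated libraries. It had 0, 9 and 18 counts in treated WT and 0, 36 and 79 in treated KO, with replicate 1 at 0 in both. Like COMP it reached the test only through treated libraries. RNF44, a ring finger gene on the other side, fell by 0.69 over both genotypes (log2 scale, edgeR adjusted p = 0.0176), where 14.6% of all tested genes were called. Around SNCG, its opposite-strand host MMRN2, which encodes an endothelial matrix protein, was also lower in KO. MMRN2 held 25, 28 and 90 counts in untreated WT against 8, 2 and 0 in untreated KO, a difference of -3.51 (edgeR adjusted p = 0.0205), which passed in 10 of 12 fits that left out 1 library. Between untreated genotypes 22.6% of all tested genes were called. With butyrate MMRN2 held 35, 65 and 89 counts in WT and 16, 48 and 16 in KO (-1.38, edgeR adjusted p = 0.295). AGAP11 on the far side was lower in KO over both treatments (-1.74, edgeR adjusted p = 0.0153), whereas BMPR1A, the receptor gene beside MMRN2, was not called. Over both treatments 36.6% of all tested genes were called.

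**Figure D2:**
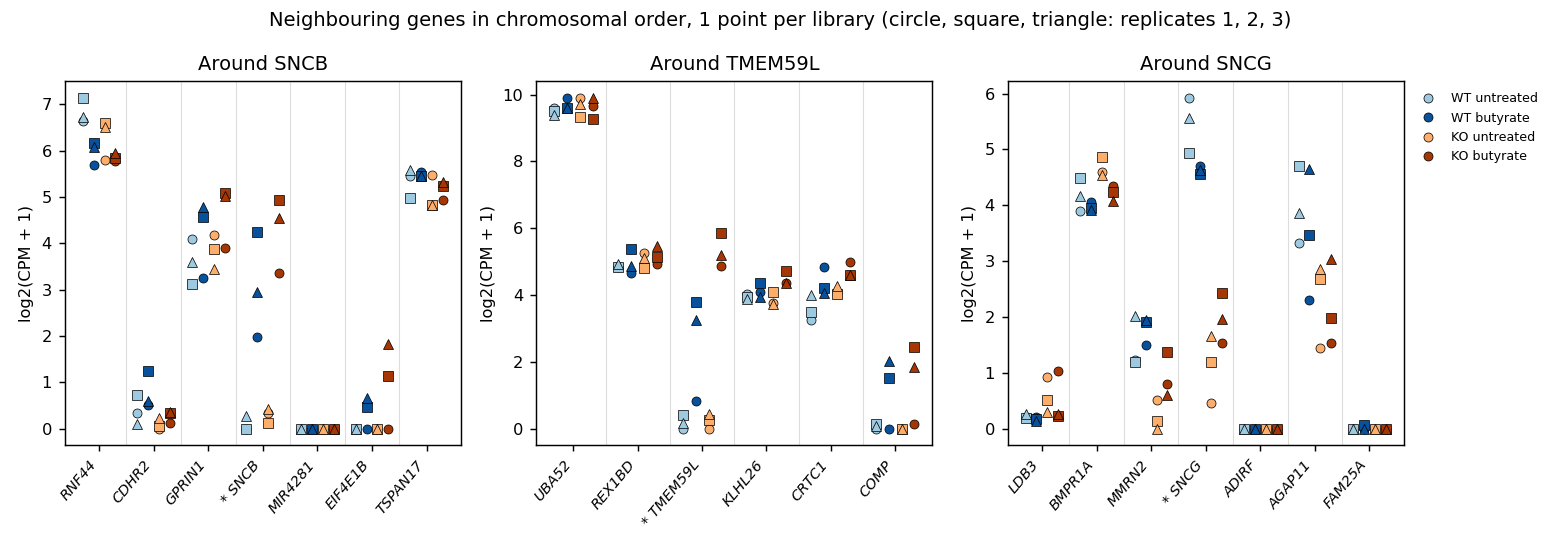
Levels of SNCB, TMEM59L and SNCG (starred) and of 2 or 3 genes on either side as log2(CPM + 1) (vertical axis), in RefSeq order along the chromosome, 1 point per library, coloured by group and shaped by replicate number. COMP stands above 0 in replicates 2 and 3 of both treated groups, and MMRN2 and AGAP11 are lower in KO along with SNCG.

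The 5 genes whose log2 CPM followed SNCB most closely over the 12 libraries were NCCRP1 (Pearson r = 0.977), RCN3 (0.965), COL1A1 (0.964), LOC100420587 (0.964) and NACAD (0.964). For TMEM59L they were LRRC32 (0.963), ITGB2-AS1 (0.959), RTBDN (0.956), LOC101927166 (0.953) and TIMP2 (0.953). SNCB and TMEM59L had an r of 0.934 with each other. Both were chosen for their rise from near 0 with butyrate, which largely fixed this value. These correlations describe 12 libraries in 4 groups that share their treatment and replicate numbers. Most of these genes started low: COL1A1, a fibrillar collagen gene, averaged 3.05 ± 1.32 CPM in untreated WT and 80.8 ± 33.6 in treated WT, and TIMP2, a metalloproteinase inhibitor gene, 0.0491 ± 0.0505 and 4.70 ± 3.09 CPM (SD, n = 3).

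REST itself was present in every library and no butyrate effect on it passed the test. Untreated WT libraries gave 29.5, 32.4 and 34.9 CPM of REST and treated WT libraries 45.8, 21.0 and 26.7 CPM. Untreated KO libraries gave 37.8, 65.4 and 52.8 CPM and treated KO libraries 39.8, 45.5 and 36.7 CPM. Treated WT spread on both sides of untreated WT, with replicate 1 above and the other 2 below. The butyrate effect on REST was -0.05 in WT (95% interval -0.66 to 0.56, edgeR adjusted p = 0.956) and -0.36 in KO (-0.96 to 0.25, edgeR adjusted p = 0.523). Without the libraries numbered 1 the mean effect over genotypes was -0.52 (edgeR adjusted p = 0.0260), against -0.20 with them (edgeR adjusted p = 0.530).

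All 3 untreated KO libraries had more REST than all 3 untreated WT libraries. The log2 difference was 0.69 (SE 0.28, edgeR adjusted p = 0.100), in a comparison where 42.3% of tested genes had groups that did not overlap. With butyrate the groups overlapped (0.38, edgeR adjusted p = 0.393). Over both treatments the difference was 0.54 (SE 0.20), just short of the threshold (edgeR adjusted p = 0.0510) and just past it with the replicate block (0.0432). It passed in 2 of 12 fits that left out 1 library. Without the libraries numbered 1 the difference over both treatments was 0.78 (edgeR adjusted p = 0.0023). In that setting it was 0.79 in untreated cells (edgeR adjusted p = 0.0206) and 0.76 in treated cells (0.0264).

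Of the CoREST genes, RCOR1 and RCOR2 showed no difference that passed in any comparison, and RCOR3 was higher in KO. RCOR1 ranged from 83.5 to 170 CPM over the 12 libraries, and its highest value, in replicate 2 of untreated KO, stood well above the other 2 libraries of that group (85.5 and 98.2 CPM). RCOR2 ranged from 7.04 to 18.2 CPM, with replicate 1 the lowest library of each group. RCOR3 gave 46.6, 44.5 and 51.7 CPM in untreated WT and 86.7, 63.2 and 72.0 in untreated KO. With butyrate it gave 66.4, 55.0 and 46.8 CPM in WT and 116, 59.1 and 61.8 in KO. The untreated groups did not overlap, as in 42.3% of tested genes, and the treated ones did. Replicate 1 was the highest library in 3 of the 4 groups.

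Over both treatments RCOR3 was 0.56 higher in KO (log2 fold change, SE 0.18, edgeR adjusted p = 0.0280). RCOR3 and SNCG were the 2 of the 7 tested genes called in that contrast, where 36.6% of all tested genes were called, and with the replicate block REST made 3. The call for RCOR3 held in 5 of 12 fits that left out 1 library, with a highest edgeR adjusted p of 0.0778. It was lost without replicate 1 or 2 of untreated WT, 2 or 3 of treated WT, 1 or 3 of untreated KO or 1 of treated KO, and it was lost without the libraries numbered 1 (0.0585). In untreated cells alone the difference was 0.64 (edgeR adjusted p = 0.0978, or 0.0330 with the replicate block).

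KDM1A, the demethylase, and SIN3A, the scaffold of the other arm, were not called in any comparison. KDM1A ranged from 137 CPM in replicate 2 of treated WT to 256 CPM in replicate 1 of treated KO. SIN3A ranged from 54.3 to 87.8 CPM, both of these in untreated KO. The butyrate effect on KDM1A was -0.14 in WT (95% interval -0.59 to 0.31) and 0.05 in KO (-0.40 to 0.50), and on SIN3A -0.15 (-0.61 to 0.31) and -0.07 (-0.53 to 0.39). KDM1A shares 4935 of its 5440 exonic bases with the span of an antisense transcript, so its counts are uncertain if strand was not used.

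With butyrate 0 of the 6 repressor genes was called in either genotype, where 2.35% of tested genes were called in WT and 3.40% in KO. Their effects were small in WT (log2 fold changes from -0.15 to 0.34) and in KO (-0.36 to 0.09), and the 95% intervals reached from -0.66 to 1.05 in WT and from -0.96 to 0.77 in KO. Averaged over the genotypes, 0 of the 6 passed with edgeR, at effects of -0.20 to 0.20, in a contrast where 14.6% of all tested genes were called. Their median effect there was -0.08 against 0.03 over all tested genes. Changes of up to 1.62-fold upwards and down to 0.645-fold remained within these intervals of the mean effect. On the scale per kilobase of exon, KDM1A was the most abundant of the 6, with group means of 33.2 to 42.3 CPM per kilobase. RCOR1 followed with 14.9 to 19.0, and RCOR3 (5.24 to 8.68), SIN3A (5.19 to 5.77), REST (3.91 to 6.52) and RCOR2 (4.12 to 5.22) lay lower and close to each other.

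**Figure D3:**
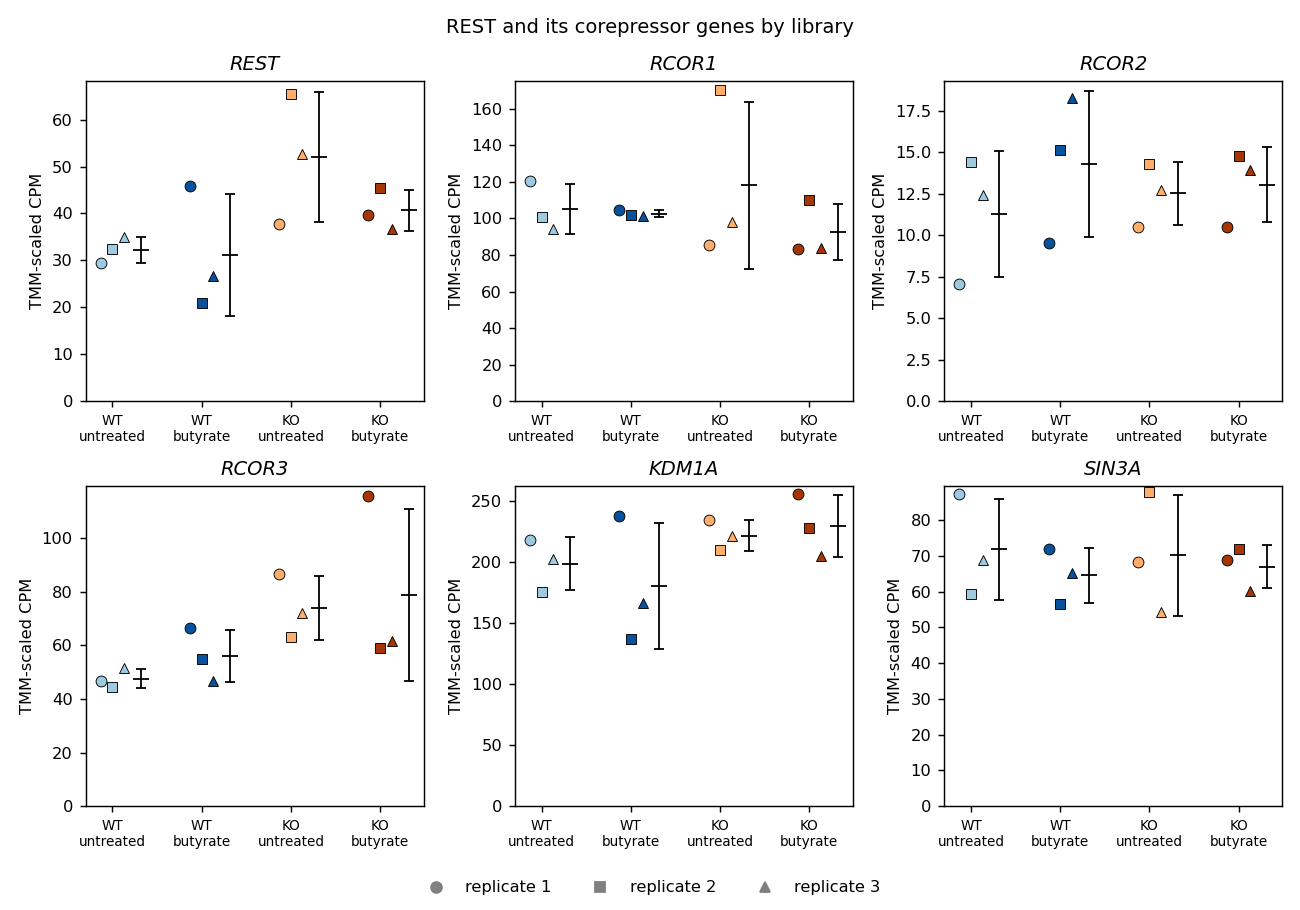
Levels of REST, RCOR1, RCOR2, RCOR3, KDM1A and SIN3A in TMM-scaled CPM (vertical axis, from 0) for the 4 groups (horizontal axis), with 1 point per library, shaped by replicate number, and the mean with its SD. Treated and untreated points of a genotype overlap for each gene, and RCOR3 and REST are higher in untreated KO than in untreated WT.

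**Figure D4:**
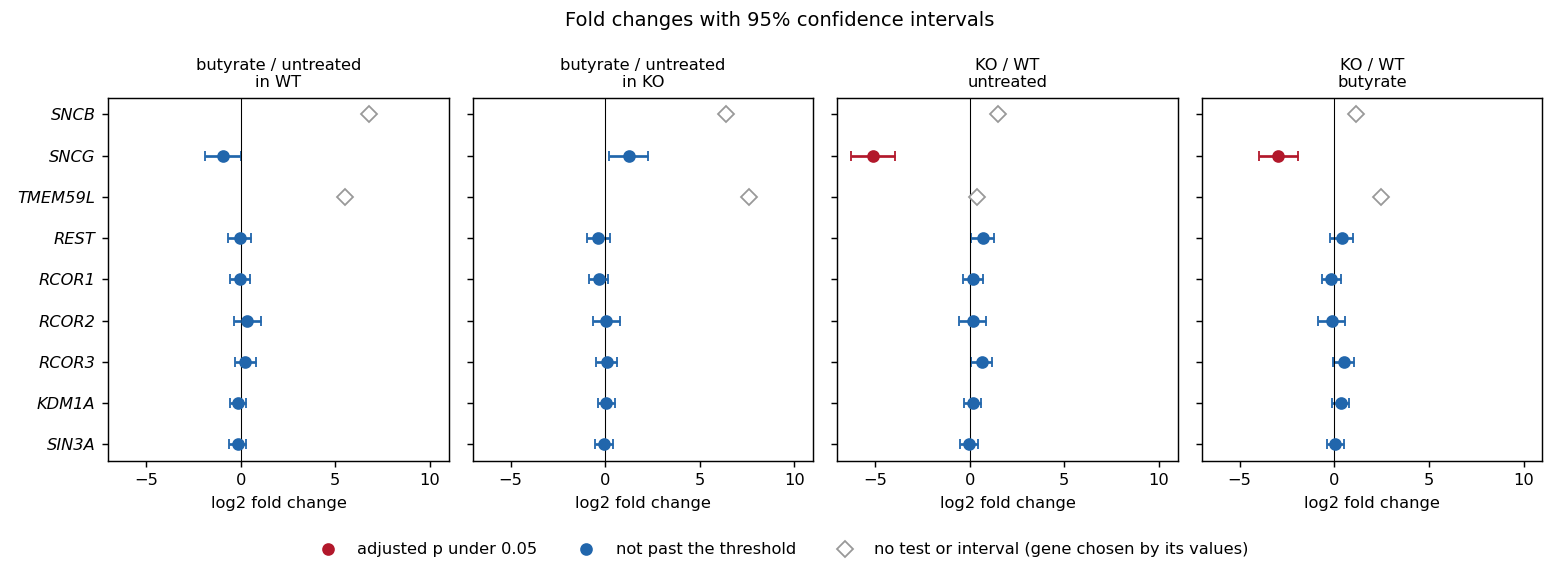
Log2 fold changes (horizontal axis) of the 9 genes (vertical axis) in 4 comparisons, with 95% confidence intervals. Open diamonds are SNCB and TMEM59L, which carry no interval because they were chosen by their values, and red points are SNCG at -5.12 and -2.95, past the threshold between genotypes.

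Other subunits and partners of the REST, CoREST and SIN3 complexes gave few calls with butyrate, as did all genes (2.35% called in WT and 3.40% in KO). All 26 listed partners were tested. In WT 0 were called with edgeR, 2 had an unadjusted p under 0.05, DESeq2 called 1 and the replicate block 2, all of the called ones higher. In KO 0 were called by edgeR, by DESeq2 or with the block, and 0 had an unadjusted p under 0.05. Averaged over genotypes, where 14.6% of all tested genes were called, 1 was called: ING1, a SIN3 subunit gene, rose by 0.56 (log2 scale, edgeR adjusted p = 0.0389, passing in 2 of 12 fits that left out 1 library). The median over the list was 0.02 against 0.03 for all tested genes, and the block called 2 higher and 3 lower. Without the libraries numbered 1 there were 0 higher and 5 lower.

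Between untreated genotypes 4 of the 26 partners were higher in KO and 0 lower, a smaller share than the 22.6% of all tested genes called. RBBP4, a histone chaperone shared by several deacetylase complexes, was 219 ± 16.7 CPM in WT and 389 ± 64.6 in KO (log2 fold change 0.83, edgeR adjusted p = 0.0197), and ING1 and CDYL, a corepressor with a chromodomain, were higher by 0.79 and 0.67 (edgeR adjusted p = 0.0277 and 0.0247). The count of 4 fell to 0 without replicate 2 of untreated WT. HDAC1 averaged 196 ± 21.4 CPM in untreated WT and 302 ± 65.2 in untreated KO (0.62, edgeR adjusted p = 0.0352), while HDAC2 averaged 230 ± 25.3 and 228 ± 37.3. The groups' SD are over n = 3.

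Of 5 listed transcription factors that recruit CoREST and KDM1A, 4 were tested and 0 were called with butyrate in either genotype alone with edgeR. At an unadjusted p under 0.05 there was 1 in WT and 2 in KO, DESeq2 called 0 in WT and 2 in KO, and the block 0 and 1. Over both genotypes, where 9.22% of all tested genes rose, SNAI1, a repressor of epithelial genes, rose by 0.90 (log2 scale, edgeR adjusted p = 0.0296) and GFI1B, an erythroid and megakaryocytic repressor, by 0.85 (edgeR adjusted p = 0.0479). Both calls were unsteady, holding in 4 and 2 of 12 fits that left out 1 library, and the count was 1 or 0 in every such fit. The list median was 0.63 against 0.03 over all tested genes.

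Among 10 genes for the turnover, phosphorylation and splicing of REST, 9 were tested and 1 was called between genotypes in untreated cells, against 22.6% of all tested genes. CTDSPL, a small C-terminal domain phosphatase of the family that acts on REST, averaged 40.7 ± 3.78 CPM in untreated WT and 0.279 ± 0.314 in untreated KO (SD, n = 3). Its log2 difference was -7.27 untreated (edgeR adjusted p = 1.7e-05) and -3.71 with butyrate (edgeR adjusted p = 0.00067). It rose by 2.87 with butyrate in KO (edgeR adjusted p = 0.0333, in 5 of 12 fits that left out 1 library). SRRM4, a splicing regulator of REST in neurons, had 0 counts in every library. The list's median genotype difference was 0.03 in untreated cells, against 0.02 over all tested genes.

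The next genes are known targets of REST, which carry RE1 elements near or within them. Of 38 such genes 23 were tested and 15 were too low. Of those 15, 11 never exceeded 3 counts and 7 had 0 counts everywhere. Averaged over the genotypes 9 of the 23 rose with butyrate and 0 fell, against 9.22% of all tested genes that rose. Their median effect was 1.38 against 0.03 over all tested genes. With the replicate block the count was again 9, and it ran from 6 to 10 as single libraries were left out. The 14 others did not pass, and the genes too low to test cannot be read as unchanged. A gene near 0 without butyrate, such as GRIN1, which is among the 9, could enter the test only through its treated libraries. The count is therefore a description of the genes that entered.

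L1CAM, a neuronal cell adhesion molecule gene, rose by 5.16 (log2 fold change over both genotypes, SE 0.91, edgeR adjusted p = 0.0041). It went from 2.04 ± 2.63 to 51.9 ± 40.8 CPM in WT and from 0.145 ± 0.251 to 9.12 ± 5.53 CPM in KO (SD, n = 3). The untreated KO level of L1CAM was near the limit of detection, so the size of its rise there is uncertain. GRIN1, an NMDA receptor subunit gene, rose by 4.91 (SE 1.25) from at most 8 counts to at most 69. It reached the test only through its treated libraries, so it is given without a p-value. CHRM4, a muscarinic receptor gene, rose by 3.66 (SE 0.87, edgeR adjusted p = 0.0169). SYN1, which encodes the synaptic vesicle protein synapsin, rose by 3.12 (SE 0.57, edgeR adjusted p = 0.0049). L1CAM, CHRM4 and SYN1 passed in 12 of 12 fits that left out 1 library.

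Within single genotypes fewer targets passed, against 2.35% of all tested genes called in WT and 3.40% in KO. In WT 1 of the 23 was called, near that share: SYP, the gene of the synaptic vesicle protein synaptophysin, rose by 3.97 (edgeR adjusted p = 0.0046) from 3.82 ± 1.00 to 59.9 ± 18.5 CPM. In KO 3 were called: L1CAM by 5.69, SYN1 by 3.69 (edgeR adjusted p = 0.0332) and the neuronal tubulin gene TUBB3 by 1.91 (edgeR adjusted p = 0.0289). L1CAM lay near the limit of detection in untreated KO, so its effect there rests on the treated libraries and is given without a p-value. As above, these counts describe the genes that entered the test. These KO calls held in 5, 7 and 7 of 12 fits that left out 1 library, and the count of 3 fell to 0 in the lowest of them, without replicate 2 of treated KO. With the replicate block 5 were called in WT and 6 in KO, and without the libraries numbered 1 there were 10 in each.

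Between untreated genotypes the targets moved in both directions, with 2 higher and 5 lower of 23 in KO, against 22.6% of all tested genes called in either direction. The median was -0.40 against 0.02 over all tested genes. A gene near 0 in one genotype, such as SCN2A in KO, could enter the test only through the other. This count too describes the genes that entered. SCG3, a secretogranin gene of dense-core vesicles, averaged 73.3 ± 1.64 CPM in untreated WT and held at most 3 counts in any untreated KO library. SCN2A, a sodium channel gene, averaged 3.07 ± 1.17 CPM in untreated WT and had 0 counts in all 6 KO libraries. CHGB, which encodes chromogranin B, went the other way, from at most 1 count in untreated WT to 0.872 ± 0.412 CPM in untreated KO. VGF, a neuropeptide precursor gene, was lower in KO by 4.87 (log2 scale, edgeR adjusted p = 0.0019).

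Genes of the presynaptic vesicle, the site where beta-synuclein works, gave a similar count, though the lists overlap in 5 genes (CPLX1, CPLX2, SNAP25, SYN1 and SYP). Of 20 listed, 14 were tested and 7 rose over both genotypes while 0 fell, against 9.22% of all tested genes that rose, with a median of 1.17 against 0.03 over all tested genes. The count ran from 5 to 8 as single libraries were left out. SV2A, a vesicle glycoprotein gene, rose by 2.82 (log2 scale, edgeR adjusted p = 0.0132) and RAB3A, a vesicle GTPase gene, by 2.01 (edgeR adjusted p = 0.0082). RAB3A went from 2.74 ± 1.34 to 13.3 ± 4.50 CPM in WT and from 3.34 ± 2.15 to 11.2 ± 2.81 CPM in KO (SD, n = 3). Of the neuron markers, 4 of the 5 tested rose over both genotypes, beside the same 9.22%: PRPH, a peripheral nerve intermediate filament gene, by 3.91, SYP by 2.87, TUBB3 by 1.54 and the enolase gene ENO2 by 1.34. That count ran from 3 to 5 as single libraries were left out. As with the REST targets, a presynaptic gene or marker near 0 without butyrate could enter only through its treated libraries. Both counts therefore describe the genes that entered. The markers share INA, NEFM, SYP and TUBB3 with the REST targets and SYP with the presynaptic list, so they are not a separate set.

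**Figure D5:**
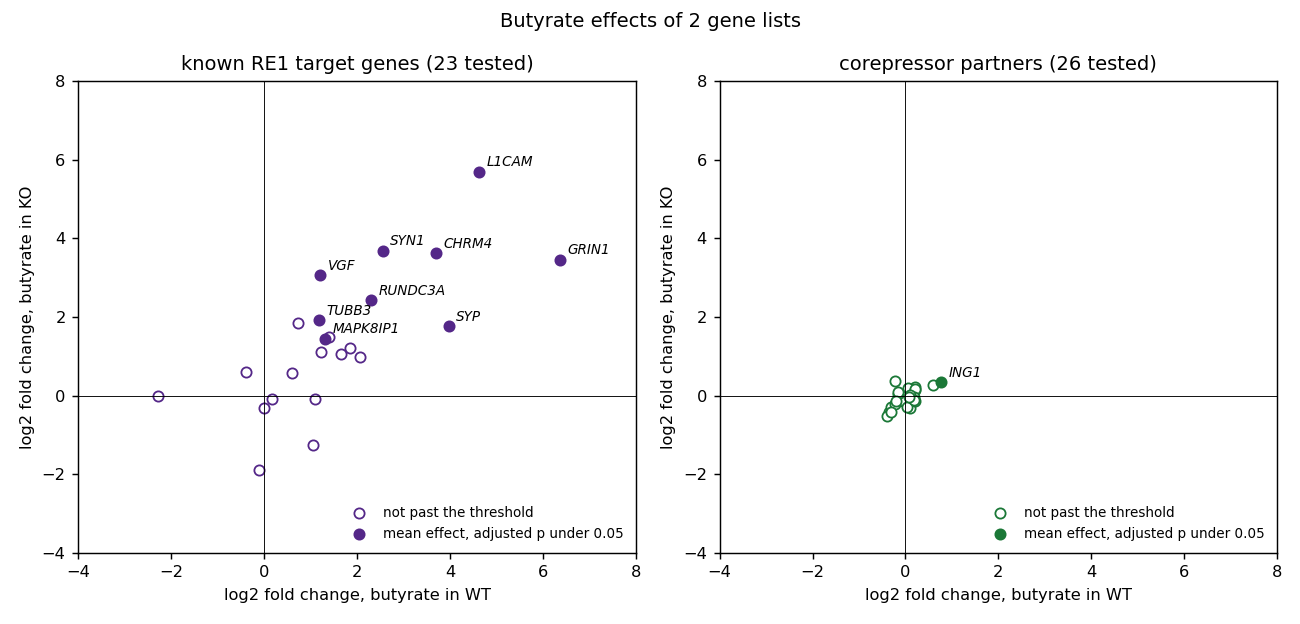
Log2 fold changes with butyrate in WT (horizontal axis) and in KO (vertical axis) of 23 REST target genes (left) and 26 corepressor partners (right), 1 point per gene, filled where the mean of both effects passed the test. The 9 filled targets lie above 0 on both axes, the partners lie near 0, and SCN2A, with 0 counts in every KO library, is drawn at 0 on the vertical axis.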

How the data were processed

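RNA sequencing covered 12 libraries of K562 cells, 3 in each of 4 groups taken from the sample titles. The authors deposited raw counts in 1 table, by gene symbol. Reads were checked with FastQC 0.12.1 and aligned with STAR 2.7.11b to hg38, per the submitters' processing notes. The counter, the annotation and the use of strand are not given in the sources used here.

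Counts were analysed in R 4.3.3 with edgeR 4.0.16: filterByExpr (minimum count 10), TMM scaling, 1 mean per group over all 12 libraries and the quasi-likelihood F-test, with Benjamini-Hochberg adjustment over 15805 genes in each contrast and a threshold of 0.05. The model was also run on simulated counts as a check of the code. Those counts had less spread between libraries than these data and no shared replicate numbers. They therefore do not show how reliable the calls are. Correlations used log2 CPM with a prior count of 2. CPM per kilobase used exons of GENCODE 29.

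The 9 genes and all lists were chosen with earlier results of these data known. All 9 are named. Of each list up to 4 called genes per contrast, by size of change, are named, together with up to 3 neighbours on either side and the 5 genes most alike, with a few others named after their values were seen. Some genes are not reported here and were left out of the lists before counting.

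Same-numbered libraries deviated together from their group means in every pair (correlations 0.147 to 0.595). The numbers may therefore pair the libraries, which is read from the data and not from the labels. Differently numbered libraries reached 0.343, above the lowest same-numbered value of that comparison (0.315, KO against WT with butyrate). The main model has no block, so its p-values ignore such a pairing, and the block is an alternative. Alternatives were DESeq2 1.42.0, RLE factors, library size alone, no filter, at least 10 counts in every library, the replicate block, the 6 libraries of a comparison alone, and leaving out each library or the 4 numbered 1. Depth sets the limit of detection of 3 counts. No protein sequences or genome were used here.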

Additional observations from a re-analysis of the deposited data

Results flagged for a closer look

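The butyrate effect on SNCG in KO minus that in WT was 2.16 on the log2 scale (SE 0.66). It is listed here because each same-numbered pair of WT libraries had less SNCG with butyrate (ratios of 0.417, 0.764 and 0.514) and each pair of KO libraries had more (5.03, 3.40 and 1.36). The test of this difference did not pass over all genes (edgeR adjusted p = 0.738, 0.295 with the replicate block, and 0.122 with DESeq2). The untreated KO libraries behind these ratios held 7, 27 and 64 counts.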

How the results depend on the processing

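In butyrate-treated against untreated WT, 372 genes were called, and in KO 537. DESeq2 called 1296 and 1490, the replicate block 1361 and 1852, and the libraries without the 4 numbered 1 gave 1884 and 2164. In WT the 6 libraries alone gave 63, and in KO at least 10 counts in every library gave 304. Leaving out 1 library gave 43 (without replicate 2 of untreated WT) to 1243 (without replicate 1 of treated WT) in WT and 48 (without replicate 2 of untreated KO) to 1039 (without replicate 1 of treated WT) in KO. The mean butyrate effect gave 2305, with 4196 under the block, 4735 without the libraries numbered 1 and 1198 (without replicate 2 of treated WT) to 3795 (without replicate 1 of treated WT) as single libraries were left out. Requiring at least 10 counts in every library took 3574 genes to 2334 between untreated genotypes and 3009 to 1947 between treated ones, where the block gave 4612 and the 6 libraries alone 1802. The interaction had 0 genes with edgeR, 81 with DESeq2, 2 with no filter, 1 with at least 10 counts, 3 under the block, 9 without the libraries numbered 1 and 0 to 2 as single libraries were left out.

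Of the 7 tested genes, 1 was called between untreated genotypes, 1 between treated ones and 2 over both treatments. At least 10 counts in every library, which drops SNCG, gave 0, 0 and 1. The block gave 2, 1 and 3. Without the libraries numbered 1 there were 2 untreated and 2 treated, and with the 6 libraries alone 3 untreated. Leaving out single libraries gave 1 to 2 (without replicate 1 of treated WT or of treated KO), 1 to 3 and 1 to 4 (both without replicate 1 of treated WT). For the mean butyrate effect 0 of 7 were called, and 1 (REST) without the libraries numbered 1.

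The log2 fold changes that follow changed sign under a setting. They had not passed the threshold or, for SNCB and TMEM59L, had no test, and the cause was not tested. As single libraries were left out, the butyrate effect in WT ran from -0.44 to 0.16 for REST, -0.10 to 0.068 for RCOR1, -0.40 to 0.018 for KDM1A and -0.28 to 0.0059 for SIN3A. In KO it ran from -0.54 to 0.014 for RCOR1, -0.055 to 0.19 for RCOR2, -0.29 to 0.27 for RCOR3, -0.039 to 0.14 for KDM1A and -0.21 to 0.14 for SIN3A. Averaged over genotypes it ran from -0.055 to 0.47 for SNCG, -0.032 to 0.25 for RCOR3 and -0.17 to 0.032 for KDM1A. The genotype difference in untreated cells ran from -0.66 to 1.30 for TMEM59L, -0.22 to 0.36 for RCOR1, -0.10 to 0.36 for RCOR2 and -0.26 to 0.13 for SIN3A, and in treated cells from -0.36 to 0.061 for RCOR2 and -0.033 to 0.13 for SIN3A. Over both treatments it ran from -0.19 to 0.10 for RCOR1, -0.12 to 0.12 for RCOR2 and -0.11 to 0.092 for SIN3A. The interaction ran from -4.43 to 0.57 for SNCB, -0.52 to 0.092 for REST, -0.50 to 0.051 for RCOR1, -0.53 to 0.034 for RCOR3 and -0.076 to 0.29 for SIN3A.

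Without the libraries numbered 1, values that changed sign were 0.043 for RCOR1 in WT, -0.18 for RCOR3 and -0.011 for KDM1A in KO, -0.056 for RCOR3 over genotypes, -0.0033 for RCOR2 and 0.13 for SIN3A between untreated genotypes, -0.12 for RCOR2 over treatments, and interactions of 0.091 for SNCB and -0.030 for SIN3A. At least 10 counts in every library gave 0.0012 for REST and 0.025 for RCOR1 in WT, 0.012 for SIN3A in KO, 0.020 for KDM1A over genotypes and, between genotypes over treatments, -0.011 for RCOR1, -0.014 for RCOR2 and -0.011 for SIN3A. For these same 3 genes DESeq2 gave -0.0065, -0.0054 and -0.0082 and RLE factors -0.0068, -0.0050 and -0.0084, and the block gave -0.023 for RCOR1. Library size alone gave 0.053 for SIN3A in KO and 0.0061 for KDM1A over genotypes. Among the log2 fold changes of the 9 genes over all settings, 1100 kept their direction and side of the threshold (or, untested, moved by less than the spread), 16 newly passed, 8 (RCOR3 over treatments) no longer passed, 81 changed sign and 5 untested ones moved further.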

Other observations

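Markers of other lineages, listed to check the cells, were not flat either. Of 9 such genes, MS4A1, CDH5 and OLIG2 had 0 counts in every library and 5 were tested. Averaged over genotypes 2 rose with butyrate and 1 fell, beside 14.6% of all tested genes called. COL1A1, which encodes the main chain of type I collagen, rose by 4.83 (log2 scale, edgeR adjusted p = 8.8e-05), from 3.08 ± 1.42 to 96.9 ± 49.3 CPM in KO (SD, n = 3). GFAP, an astrocyte filament gene, rose by 2.94 (edgeR adjusted p = 0.0066) while staying at 89 counts or fewer in every library. EPCAM, an epithelial adhesion gene, fell by 0.89 (edgeR adjusted p = 0.0216).

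TMEM59, the relative of TMEM59L that is expressed widely, was not called with butyrate and was higher in KO. It averaged 88.0 ± 12.1 CPM in untreated WT and 157 ± 28.3 in untreated KO, and 72.8 ± 9.22 and 131 ± 15.5 CPM with butyrate (SD, n = 3). The log2 differences were 0.83 and 0.85 (edgeR adjusted p = 0.0078 and 0.0084), and both passed in every fit that left out 1 library.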
